A study of Arabidopsis thaliana with 12 samples.

Results

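The chloroplast NADH dehydrogenase-like (NDH) complex was followed through 5 nuclear genes of Arabidopsis thaliana, chosen by name, whose probes the platform annotation pairs with exactly 1 gene. They are NdhS (AT4G23890), NdhN (AT5G58260), PIFI (AT3G15840), CRR41 (AT1G51100) and CRR21 (AT5G55740), with 1 probe each, out of 692 probes with 1 gene and 3439 probes in all. Total RNA of wild-type plants of the ecotype Columbia 0 was measured on 12 arrays. The 6 pStau arrays came from plants kept for 4 h in water and then for 4 h with staurosporine, an inhibitor of many protein kinases, given in the labels as 25 mM at pH 5.5, a unit that was not checked against another source. The 6 H2O arrays came from plants kept for 8 h in water. The labels give no age or tissue, and of 4 leaf and 4 root marker genes looked for, 0 had a probe of their own, so the tissue could not be checked.

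The NDH complex sits in the thylakoid membrane, takes electrons from ferredoxin and passes them to plastoquinone, which serves cyclic electron flow around photosystem I and chlororespiration, the reduction of plastoquinone that goes on without light. Its subunits are encoded partly in the plastid and partly in the nucleus, and many nuclear proteins are needed to edit its plastid transcripts and to put the complex together. Mutants of it are recognised by the loss of a transient rise in chlorophyll fluorescence after the actinic light is switched off, from which the names CRR (chlororespiratory reduction) and PIFI (post-illumination chlorophyll fluorescence increase) come.

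Deposited intensities ran from 0 to 100 in arbitrary units taken as linear. Array totals were 3054 to 3562. The pStau arrays had medians of 0.169 to 0.392 and 12.3% to 17.3% of values at exactly 0, while the H2O arrays had medians of 0.405 to 0.485 and 11.5% to 13.1% at 0. Because of these unequal medians the positive values were quantile normalized, and a level or change called normalized below is on that log2 scale. Whether the 6 arrays of a group hold RNA of different plants is not stated in the labels, and the p-values therefore cover no more than the spread between arrays, which may be technical. Within a group the arrays fell into sets of neighbouring numbers, 1 with 2, 3 with 4 and 5 with 6, that were alike to unequal degrees. Deviations from the group mean correlated with r from 0.011 to 0.73 within these array sets, against -0.43 to -0.25 between other arrays of the group. These r are across probes, which are not independent replicates. Taking out the group mean by itself pushes r between arrays of a group below 0, so negative values alone do not show unlikeness.

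With these arrays CRR21 rose in pStau, and NdhS and PIFI did not pass the test. NdhN and CRR41 were listed at 0 on nearly every array, among them all 6 H2O arrays, so they could not be called lower. Among the 3 genes that could, 0 fell (0 also at an unadjusted limma p under 0.05). These calls are those of the fit without a block: with the replicate number as a block PIFI also passed, as lower (limma adjusted p = 0.0368), and with the array set as a random block CRR21 did not (adjusted p = 0.0871). The test was limma's, fitted over 3256 probes with Benjamini-Hochberg adjustment and a threshold of 0.05. It called 35.3% of all probes, 16.5% as higher and 18.8% as lower in pStau. Thus 1 call among 5 genes, or among the 3 above 0 on all arrays, is not more than the background. The median normalized change of the 3 genes above 0 on all arrays was -0.11, against -0.0041 over all tested probes and -0.067 over the 652 tested probes with 1 gene.

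NdhS is a subunit on the stromal side of the complex that takes part in binding ferredoxin. Its deposited intensity had a lowest value of 14.3, a median of 15.9 and a highest value of 22.0 on the pStau arrays, and 9.56, 10.4 and 15.6 on the H2O arrays. Of the pStau arrays 3 lay above every H2O array, and the groups overlapped. NdhS was one of the brightest probes, ranking between 26 and 37 from the top on the pStau arrays and between 20 and 39 on the H2O arrays. On the normalized scale it averaged 3.83 ± 0.20 in pStau and 3.93 ± 0.38 in H2O (SD, n = 6 each). The normalized change of NdhS was -0.11 (95% interval -0.48 to 0.27, limma adjusted p = 0.668), which did not pass.

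The direction for NdhS depended on the scaling. In the table as deposited NdhS was higher in pStau at each of the 6 array numbers, by 0.59 on the log2 scale on average (limma adjusted p = 0.0216), where 5.62% of all probes were called higher. Giving each array the same total put the change at 0.57 (adjusted p = 0.0150), centring on the array median at 1.45 (adjusted p = 0.00373), and cyclic loess at 0.024 (adjusted p = 0.914). Set against the all-probe median change, which was -0.80 as deposited, NdhS lay at 1.39 in the first 3 of these scalings. These 3 differ only by a factor per array, so the value is the same by construction. Bright probes as a class had higher ratios as deposited: the median deposited change was 0.26 over the brightest 10% of tested probes, to which NdhS belongs, and -1.60 over the dimmest 10%. The upper quartile of the brightest 10% was 0.586, and NdhS stood at 0.585, so its rise was not rare among probes of its level. The part of this trend with level in the change of NdhS was not tested beyond the scalings given.

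NdhS also differed between array sets. Its normalized change was -0.068 in the set of arrays 1 and 2, 0.48 in that of 3 and 4 and -0.73 in that of 5 and 6, so the small average joins sets that went opposite ways. Consecutive arrays differed by at most 0.14 within pStau and 0.12 within H2O on the normalized scale, whereas the H2O arrays of different sets differed by up to 0.93.

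NdhN is another nuclear-encoded subunit of the stromal arm, and CRR41 is a stromal protein needed to assemble that arm. NdhN was listed at 0 on 4 of the 6 pStau arrays and on all 6 H2O arrays. Its 2 values above 0 were 0.00718 on pStau array 3 and 0.00737 on pStau array 5. CRR41 was listed at 0 on 5 of the 6 pStau arrays and on all 6 H2O arrays, with the value 0.00235 on pStau array 6. Both genes entered the fit only through these pStau values (limma adjusted p = 0.372 for NdhN and 1 for CRR41, whose normalized value lay at the floor on all 12 arrays). A 0 in this table can be a failed estimate as well as a low level, so no fold is given for either gene.

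CRR21 is a pentatricopeptide repeat protein required for editing of the plastid ndhD transcript, which codes for a subunit of the complex. Its normalized level had a lowest value of -1.23, a median of -0.88 and a highest value of -0.57 in pStau, and -1.77, -1.37 and -1.21 in H2O. Of the 6 pStau arrays 5 lay above every H2O array and array 1 lay within the H2O range. CRR21 rose 1.43-fold on this scale (log2 change 0.51 ± 0.13, SE over 6 arrays per group, limma adjusted p = 0.0136), higher at each of the 6 array numbers. In bulk RNA, a change in the share of cells of a type and in RNA per cell cannot be told apart. By array set the change was 0.35 for arrays 1 and 2, 0.40 for 3 and 4 and 0.79 for 5 and 6. In terms of rank, the probe stood above 56.3% to 73.4% of probes on the pStau arrays and above 42.3% to 56.8% on the H2O arrays.

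The rise of CRR21 is relative to the other probes of an array. Its deposited intensity had a lowest value of 0.305, a median of 0.475 and a highest value of 0.527 in pStau, and 0.389, 0.483 and 0.508 in H2O. The groups overlapped, with 2 pStau arrays below every H2O array and 1 above every H2O array. As deposited the log2 change was -0.13 (limma adjusted p = 0.536), which is 0.68 above the median change of all probes. The change was -0.14 on arrays of equal total, but 0.74 after centring on the array median and 0.61 with cyclic loess, the last 2 passing. The call on the normalized scale ended when the array set entered as a random block (limma adjusted p = 0.0871) and when the arrays of a set were averaged (adjusted p = 0.174). It also ended without arrays 3 and 4 of both groups (adjusted p = 0.0844) and without arrays 5 and 6 (adjusted p = 0.136). The call held when any 1 of the 12 arrays was left out, a weak check, since the other array of its set stayed in the fit.

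PIFI is a chloroplast protein, not itself a subunit, whose loss impairs electron flow through the NDH complex. Its deposited intensity had a lowest value of 0.0875, a median of 0.130 and a highest value of 0.528 in pStau, and 0.303, 0.628 and 0.800 in H2O. The 4 pStau arrays 3 to 6 lay below every H2O array, and pStau arrays 1 and 2 lay within the H2O range. At each of the 6 array numbers PIFI was lower in pStau, both as deposited and after normalization. Its normalized level averaged -1.83 ± 0.66 in pStau and -1.17 ± 0.71 in H2O (SD, n = 6 each).

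The normalized change of PIFI was -0.66 ± 0.38 (SE over 6 arrays per group, 95% interval -1.48 to 0.17, limma adjusted p = 0.202), which did not pass. With the replicate number as a block, which sets each pStau array against the H2O array of its own number, PIFI fell by 0.66 (limma adjusted p = 0.0368), in a fit that called 20.9% of all probes lower. With the arrays of a set averaged first and the set as a block, PIFI did not pass (adjusted p = 0.201). Arrays of a group spread widely for PIFI: its within-group SD of 0.68 exceeded that of 79.9% of probes, against a median of 0.36 over all tested probes. Most of that spread lay between array sets, since H2O arrays 5 and 6 were at -1.91 and -2.23 on the normalized scale while H2O arrays 1 to 4 lay between -0.83 and -0.61. By array set the change of PIFI was -0.41 for arrays 1 and 2, -1.20 for 3 and 4 and -0.35 for 5 and 6.

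As deposited PIFI had a log2 change of -1.58 and passed (limma adjusted p = 0.0221), in a table where 46.7% of all probes were called lower. Set against the median change of all probes, that is -0.78. On arrays of equal total the change was -1.60 (adjusted p = 0.0140). PIFI did not pass after centring on the array median (-0.72, adjusted p = 0.138), with cyclic loess (-0.71, adjusted p = 0.171) or with the array set as a random block (adjusted p = 0.334).

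**Figure D1:**
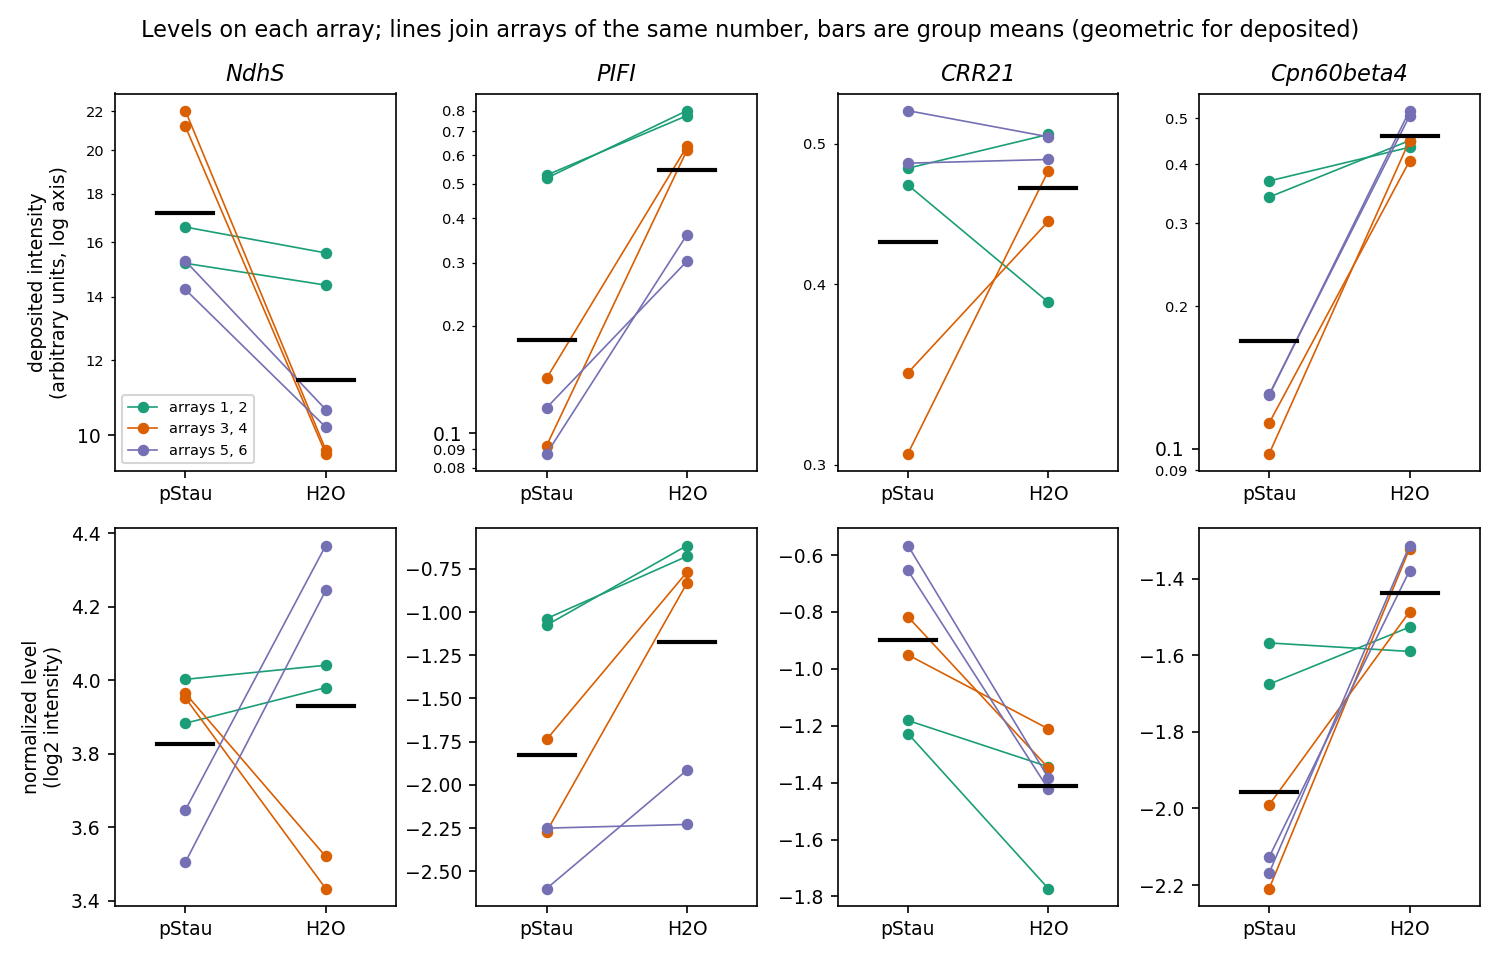
Level of NdhS, PIFI, CRR21 and Cpn60beta4, a chaperonin gene described further on, on the 6 pStau and the 6 H2O arrays, as deposited intensity in arbitrary units on a log axis (top) and as normalized log2 intensity (bottom). Each point is 1 array coloured by array set, lines join arrays of the same number and black bars are group means, geometric for the deposited values; PIFI is lower in pStau at all 6 numbers in both rows, while NdhS changes direction between the rows.

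**Figure D2:**
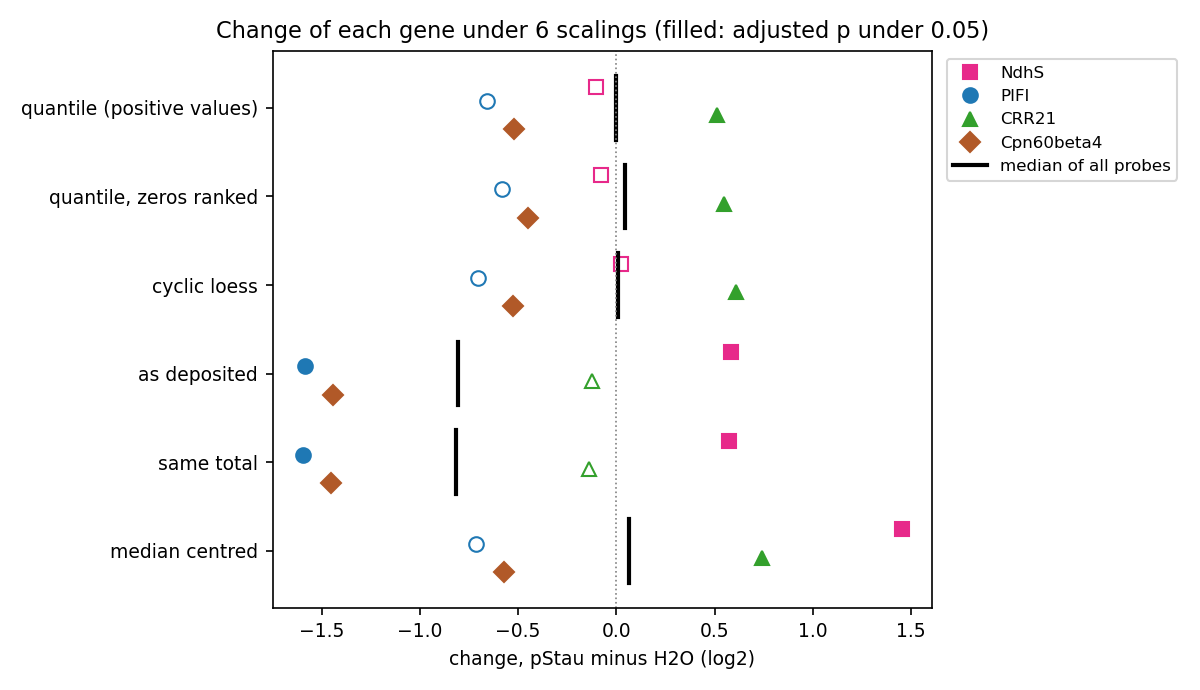
Log2 change of the 4 genes, pStau minus H2O, under 6 scalings of the arrays, with filled symbols for an adjusted p under 0.05 and black bars for the median change of all tested probes. NdhS ranges from -0.11 to 1.45, and PIFI and Cpn60beta4 are below the median of all probes in every scaling shown while CRR21 is above it. As deposited, with equal totals and with median centring, distances to that median are the same by construction.

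PIFI had a negative and CRR21 a positive normalized change, and the one was set directly against the other within each array. A difference between 2 genes on the same array does not depend on a scale factor of that array, and it compares changes, not levels of different probes. It can still depend on a trend of change with level. The deposited ratio of CRR21 to PIFI was 0.887 at the lowest, 2.95 at the median and 5.54 at the highest in pStau, and 0.501, 0.733 and 1.67 in H2O. This ratio was higher in pStau at all 6 array numbers, with overlapping groups. On the normalized scale CRR21 minus PIFI averaged 0.93 ± 0.92 in pStau and -0.24 ± 0.75 in H2O (SD, n = 6 each), and the changes of the 2 genes differed by 1.17. An exact two-sided permutation test over all splits of the 12 arrays into groups of 6 gave p = 0.0433, and 0.166 after adjustment over the 10 pairs of genes. Setting each pStau array against the H2O array of its number, the exact sign-flip p was 0.0312, the smallest that 6 numbers can give, and 0.0781 after adjustment over the 10 pairs. Neither adjusted p passed on the normalized scale, and the sign-flip p could not have been smaller with 6 numbers. Both tests take arrays or numbers as separate units, although neighbouring arrays were alike to unequal degrees. The p-values of pairs, here and as deposited, may therefore be too small, and no pair was tested with the array set as the unit.

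As deposited, CRR21 minus PIFI differed between the groups by 1.46 on the log2 scale (exact permutation p = 0.0325, adjusted p = 0.0495). The changes of NdhS and PIFI differed by 2.17 as deposited (exact permutation p = 0.0108, adjusted p = 0.0216), and by 0.55 after normalization (exact permutation p = 0.271, adjusted p = 0.338). The deposited ratio of NdhS to PIFI was 29.3 to 239 in pStau and 15.0 to 33.7 in H2O, higher in pStau at all 6 numbers. For NdhS minus CRR21 the sign itself depended on the scale, at 0.71 as deposited (exact permutation adjusted p = 0.0495) and -0.62 after normalization (adjusted p = 0.166). NdhS is far brighter than PIFI and CRR21. The median deposited change was 0.26 over the brightest 10% of probes, to which NdhS belongs. It was -0.93 over the 10% at the level of PIFI and -0.78 over that of CRR21. The part of this trend in the pairs with NdhS was not tested. The remaining 7 of the 10 pairs involve NdhN or CRR41, which were at 0 on most arrays, and are not described.

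**Figure D3:**
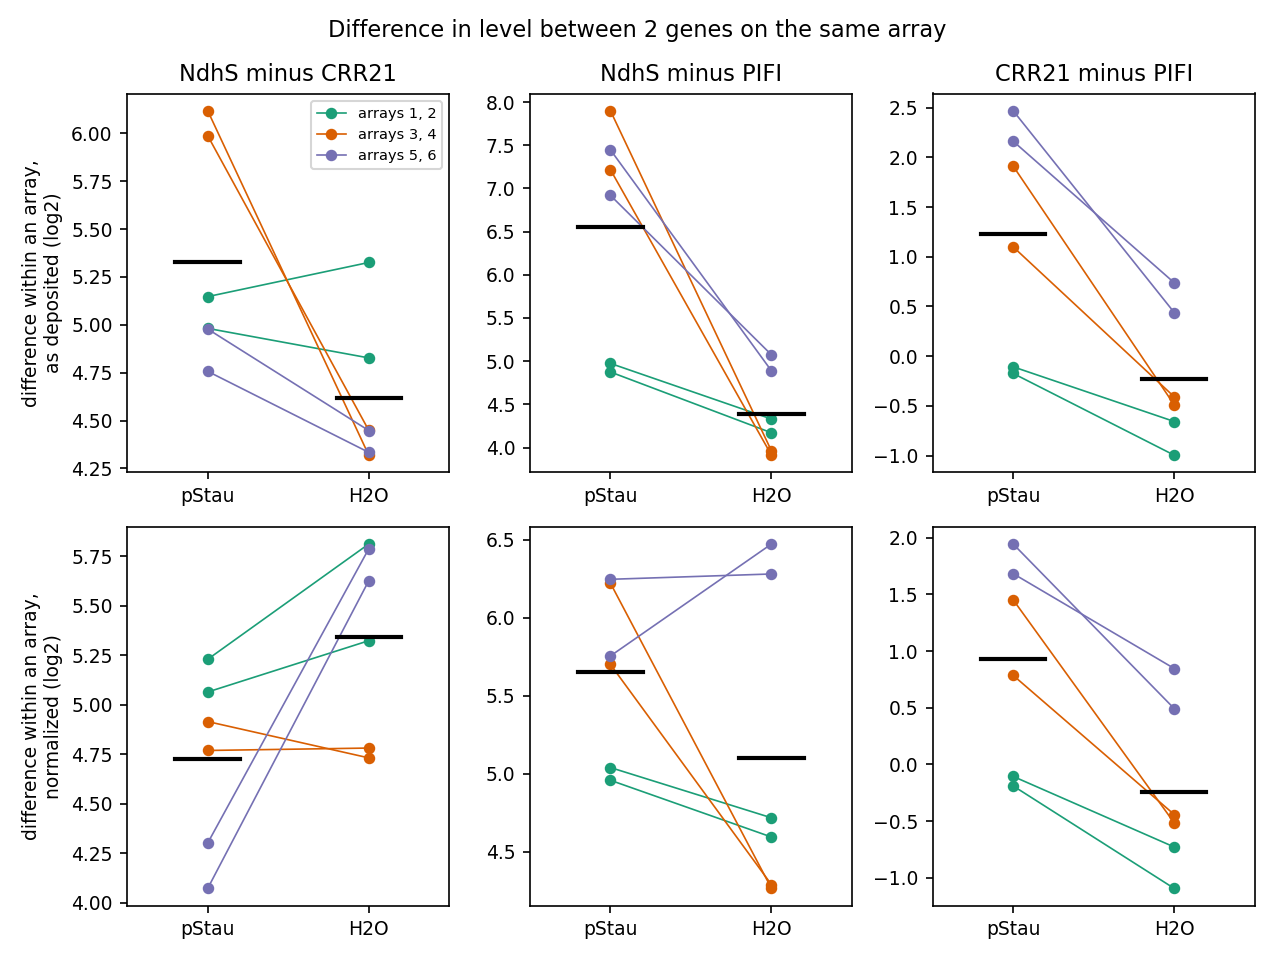
Difference in log2 level between 2 genes on the same array for the 3 pairs among NdhS, PIFI and CRR21, as deposited (top) and normalized (bottom), with 1 point per array, lines joining arrays of the same number and black bars for group means. CRR21 minus PIFI is higher in pStau at all 6 numbers in both rows, whereas NdhS minus CRR21 turns its direction between them.

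A list of 52 genes of the NDH complex and of related electron flow was looked up, among them the 12 plastid-encoded gene copies, the nuclear subunits, the linkers to photosystem I, and assembly and RNA factors. Besides the 5 genes above, 2 of the other 47 had a probe of their own, and 0 of the 12 plastid-encoded copies did, so the plastid transcripts of the complex were not measured here under a single gene name. Of these 2 only Cpn60beta4 could be tested, and it fell, as did 18.8% of all tested probes. OTP85, an editing factor for ndhD, was listed at 0 on all 12 arrays and could not be tested.

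Cpn60beta4, entered in the list as CRR27, is a chaperonin subunit needed for folding of the plastid-encoded subunit NdhH. Its deposited intensity had a lowest value of 0.0976, a median of 0.130 and a highest value of 0.369 in pStau, and 0.406, 0.449 and 0.519 in H2O. The groups did not overlap as deposited, which held for 20.2% of all tested probes in this direction. After normalization 5 of 6 pStau arrays lay below every H2O array. Cpn60beta4 fell 1.43-fold on the normalized scale (log2 change -0.52 ± 0.12, SE over 6 arrays per group, limma adjusted p = 0.00808), and its change was -0.45 to -1.45 over the 5 other scalings, passing in each. By array set its change was -0.063 for arrays 1 and 2, -0.70 for 3 and 4 and -0.80 for 5 and 6. Its call held with the array set as a random block (limma adjusted p = 0.0422) but ended when the arrays of a set were averaged (adjusted p = 0.165), without arrays 3 and 4 of both groups (adjusted p = 0.108) and without arrays 5 and 6 (adjusted p = 0.135).

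**Figure D4:**
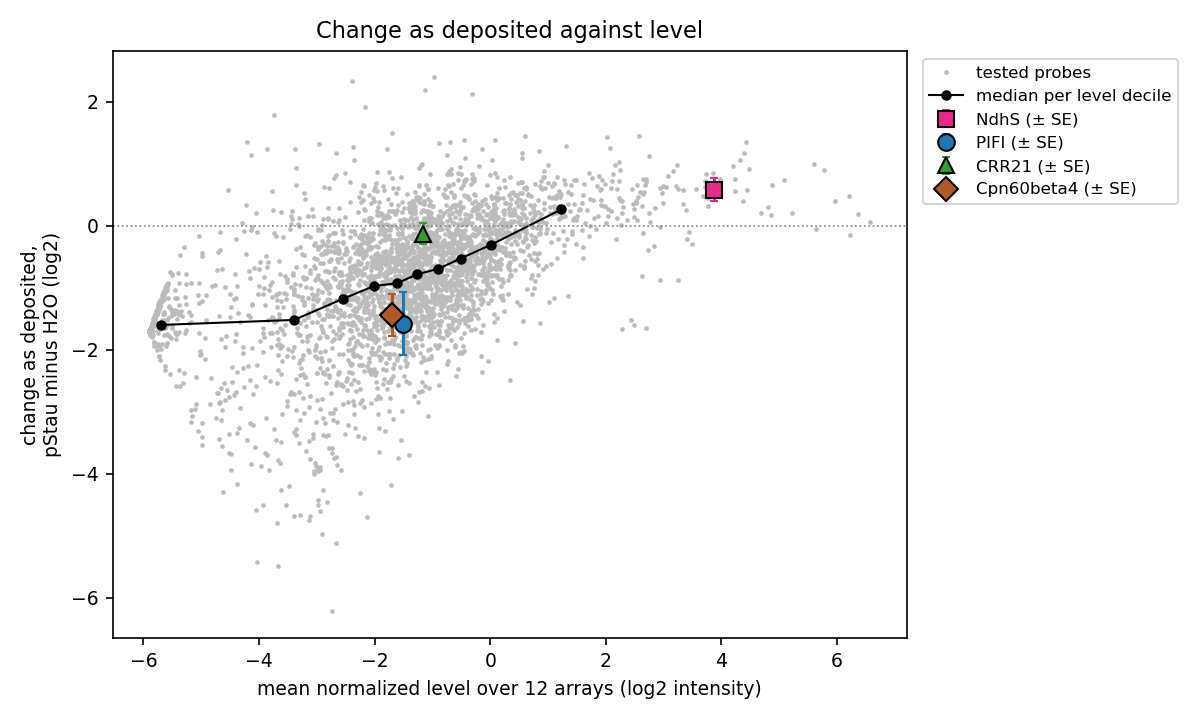
Log2 change as deposited, pStau minus H2O, against mean normalized log2 level over the 12 arrays for 3256 tested probes (grey), with the median of each 10% of probes by level (black line) and the 4 genes with their SE. The median is -1.60 in the dimmest 10% and 0.26 in the brightest 10%, PIFI (-1.58) and Cpn60beta4 (-1.44) lie below the line, CRR21 (-0.13) lies above it, and NdhS (0.59) is at the bright end.

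At their own level, PIFI and Cpn60beta4 belong to decile 5 of probes, counted from the dimmest, and CRR21 to decile 6. The median deposited change was -0.93 in decile 5, with a lower quartile of -1.42. In decile 6 the median was -0.78, with an upper quartile of -0.28. PIFI (-1.58) and Cpn60beta4 (-1.44) thus lay not far below the lower quartile of their level, and CRR21 (-0.13) above the upper quartile of its level. Levels as deposited also differed between array sets: the median deposited change of all probes was -0.25 for arrays 1 and 2, -1.07 for 3 and 4 and -0.95 for 5 and 6. The deposited changes of these 3 genes followed the same order of sets, at -0.59, -2.45 and -1.70 for PIFI, -0.32, -2.02 and -1.98 for Cpn60beta4 and 0.096, -0.50 and 0.026 for CRR21. Those of NdhS ran in the opposite order, at 0.084, 1.17 and 0.50.

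Across the 12 arrays, the normalized levels of NdhS, PIFI and CRR21 did not rise and fall together. Pearson's r was -0.68 between PIFI and CRR21, -0.47 between NdhS and CRR21 and -0.12 between NdhS and PIFI, and -0.57, -0.52 and -0.24 after the group means were taken out. Cpn60beta4 had r = 0.60 with PIFI and -0.84 with CRR21, and 0.42 and -0.59 after the group means were taken out. These values describe 12 arrays that share array sets and normalization, and no p is given.

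Among the other 529 probes with 1 gene that were above 0 on all 12 arrays, those whose normalized levels were most like each gene were found by Pearson's r over the 12 arrays. For CRR21 these were AT1G06510 (r = 0.94), AT4G20300 (r = 0.94) and AT1G13990 (r = 0.93), with log2 changes of 0.81, 0.96 and 0.51 in pStau. Their r with CRR21 within groups was 0.88, 0.85 and 0.82. Since r over all 12 arrays includes the group difference, the direction of the changes of probes chosen this way is in part given by the choice, and they are listed as a description without a test. For PIFI they were AT3G54550 (r = 0.97), AT1G35510 (r = 0.95) and TCP15, a transcription factor of the TCP family (r = 0.93), with log2 changes of -0.43, -0.66 and -0.55. Within groups, r with PIFI was 0.97, 0.95 and 0.91 for these 3. The spread of PIFI within groups, like that of NdhS, lay mostly between array sets. Within-group r for these genes thus rests largely on differences between sets, and the probes were picked by their high r. For NdhS they were AT2G44760 (r = 0.90), GH9B11, of the glycosyl hydrolase 9B family (r = 0.73), and AT4G24910 (r = 0.69), with log2 changes of -0.057, -0.61 and -0.64 and r within groups of 0.90, 0.83 and 0.82.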

How the data were processed

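The values are array intensity values in 1 table for the whole series, as the authors deposited them, and were taken as linear. Background correction, scaling, dyes and scanner are not given in the sources used here, so scaling and centring stay unknown. Groups and replicate numbers come from the titles. Gene names are those of the platform annotation, possibly outdated, updated through the RefSeq gene table (TAIR10.1, names alone): 690 of 692 probes with 1 gene matched, 870 had several genes and 1877 none.

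Positive values were quantile normalized. The 1st percentile of the result, 0.0167, served as a floor for zeros and lower values before log2. Of 3439 probes, 3256 above 0 on some array were tested with limma 3.58.1 in R 4.3.3 (lmFit, eBayes, two-sided, Benjamini-Hochberg, threshold 0.05), after a check on simulated data. Pairs of genes were tested by exact permutation of the 12 arrays, adjusted over 10 pairs.

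Same-numbered arrays deviated together (r between 0.31 and 0.54 for the 6 numbers, each above the minimum of 0.1), and were therefore treated as pairs in the block fit; the labels give no reason for the pairing. Genes named are the 5 members, listed NDH genes with a probe of their own, and the 3 most alike probes for each gene above 0 on all arrays. Members, lists, tests and alternatives were chosen with earlier results of these data known. Alternatives covered scaling, floors, filters, blocks and left-out arrays. The number of arrays limits the precision. Plots used matplotlib 3.10.9 under Python 3.11.15.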

Additional observations from a re-analysis of the deposited data

How the results depend on the processing

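CRR21 kept its direction in all settings tried except 2: it was -0.13 as deposited and -0.14 on arrays of equal total. Its call ended at the same log2 change of 0.51 with the array set as a random block, with the arrays of a set averaged and with set averages blocked by set (limma adjusted p = 0.174), at 0.57 without arrays 3 and 4 of both groups and at 0.37 without arrays 5 and 6. NdhS turned to 0.59 as deposited, 0.57 with equal totals, 1.45 with centring on the array median, 0.024 with cyclic loess and 0.21 without arrays 5 and 6 of both groups. PIFI was below 0 in every setting and passed with the replicate block (-0.66), as deposited (-1.58) and with equal totals (-1.60). The replicate block changed no other call and called 1279 probes. Over all probes, 1148 were called, against 1808 with equal totals (180 higher and 1628 lower), 524 with the random block, 3 with set averages, 484 without arrays 3 and 4 and 515 without arrays 5 and 6. The split was 536 higher and 612 lower, against 183 and 1519 as deposited and 915 and 487 with median centring. With set averages blocked by set, a setting added after seeing the data, limma called 0 (870 at an unadjusted p under 0.05). Leaving out 1 array at a time, with the other array of its set kept, gave 973 to 1250 calls, 0.44 to 0.58 for CRR21, -0.87 to -0.50 for PIFI, -0.20 to -0.018 for NdhS and -0.60 to -0.47 for Cpn60beta4. The exact sign-flip test over numbers, added after seeing the data and run on normalized values, has a smallest p of 0.0312, which CRR21 minus PIFI reached (0.0781 after adjustment over 10 pairs), so its lack of calls says nothing about stability. As deposited, NdhS minus CRR21 was 0.71, NdhS minus PIFI 2.17 and CRR21 minus PIFI 1.46, all passing. Equal totals and median centring change only a scale factor per array, so they gave the same values and are no further test. With cyclic loess none of these pairs passed (exact permutation adjusted p = 0.148 for each). NdhN and CRR41 have too few values above 0 for any setting to bear on them. The causes were not tested.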
